A study of Mus musculus with 11 samples.

Results

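Inhibitory receptors and the TOX factors that accompany them were followed in liver CD4 T cells with and without the autophagy gene Atg5. The 10 genes were given by name: the receptors Pdcd1, Tigit, Lag3, Havcr2, Cd101 and Cd160, the surface glycoprotein Cd200, the ectoenzyme Entpd1, and the transcription factors Tox and Tox2. All 10 were found by symbol among the 56748 genes of the count table and all 10 were among the 17987 genes with enough reads to be tested. The Atg5-deficient group had 6 libraries, labelled ATG5TLymph-/-, from mice whose T lymphocytes are autophagy-deficient. The wild-type group had 5 libraries, from ATG5fl/fl mice that carry the floxed gene undeleted. All mice received carbon tetrachloride (CCl4), a hepatotoxin that causes fibrosis, by chronic injection for 5 weeks, so no group shows the cells of an uninjured liver. The labels name neither the Cre line that deletes the gene, nor the age of the mice, nor whether each library is a separate animal, so p-values measure the spread between these samples, which may be technical.

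Inhibitory receptors are membrane proteins that dampen T cell activation when they bind ligands on antigen-presenting or tissue cells. They appear on T cells after activation, are carried at high level by many regulatory T cells, and are kept on T cells that meet antigen for a long time, a state called exhaustion. TOX and TOX2 are DNA-binding proteins of the high-mobility group that are induced by calcium and NFAT signals, and TOX is best known for maintaining exhausted CD8 T cells. Autophagy delivers cytoplasmic material to lysosomes, and ATG5 is part of the machinery that builds the autophagosome.

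Libraries held 30699408 to 47564440 counted reads, and total counts did not differ between genotypes past the threshold (adjusted p = 0.853, exact permutation test, two-sided, with 0.00216 as the smallest p that 6 against 5 libraries allow). Levels are CPM (counts relative to library size), scaled between libraries by TMM factors, and 3 counts, the limit that a count of 0 allows, correspond to 0.0631 to 0.0977 CPM, a limit that covers counting error only. Atg5 was at 19.1 ± 2.50 CPM (SD, n = 6) in Atg5-deficient and 16.9 ± 3.58 CPM (SD, n = 5) in wild-type libraries (log2 fold change 0.18, SE 0.14, adjusted p = 0.488). The labels do not name the deleted exons and reads were counted over the whole gene, so this value does not check the genotype. Loss of the deleted part in these libraries was not tested. The design text describes sorted cells, whereas the extraction protocol describes sections of paraffin blocks. The 8 CD4 T cell markers summed to 2904 to 4344 CPM in Atg5-deficient and 2855 to 3162 CPM in wild-type libraries (log2 difference 0.27, adjusted p = 0.0924, exact permutation test). Of the 2 CD8 T cell markers, Cd8a was at 0 to 0.157 CPM and Cd8b1 at 4.16 to 6.39 CPM over the 11 libraries. The 8 hepatocyte markers summed to 58.4 to 1034 CPM in deficient and 44.7 to 595.6 CPM in wild-type libraries (log2 difference 0.78, adjusted p = 0.649, exact permutation test). The 5 natural killer cell markers summed to 9.42 to 30.2 and 23.8 to 28.4 CPM (-0.78, adjusted p = 0.0924), and the 4 markers of gamma-delta and innate-like T cells to 7.38 to 14.0 and 11.3 to 18.3 CPM (-0.50, adjusted p = 0.0924, exact permutation tests). Of 16 library properties and summed marker lists compared, the 5 regulatory T cell markers passed the test, with 891 to 1416 against 387 to 759 CPM (difference 0.81 on the log2 scale, adjusted p = 0.0346, exact permutation test). Atg5-deficient replicates 1, 3 and 4 held the most genes far above every other library, with 5, 13 and 15, against 0 to 2 in each of the others. Lag3 and Entpd1 in replicate 4 and Cd160 in replicate 1 are given with and without those libraries, and without replicate 3 the calls among the 10 genes were those of the full set.

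Each of the 10 genes had a higher mean in the Atg5-deficient group, and 4 of them, Cd101, Tox2, Tigit and Entpd1, rose past an adjusted p of 0.05 (edgeR's quasi-likelihood F test, adjusted by Benjamini-Hochberg over all 17987 genes). None fell, and each of the 10 log2 fold changes was above 0. Of all genes tested, 4.43% were called higher and 2.41% lower, and with upper-quartile scaling, which also called these 4 genes, 3.25% and 3.81%. At an unadjusted p under 0.05, 8 of the 10 were higher, against 12.7% of all genes tested, and the 2 that were not are Cd160 and Cd200. The median log2 fold change of the 10 genes was 0.85, against -0.0027 over all genes tested. The 10 genes were chosen with earlier results of these data known, so these comparisons with all genes are descriptions. In these bulk libraries, a larger share of cells that carry a transcript and more transcript per cell cannot be told apart. The summed regulatory T cell markers were higher in the same group (891 to 1416 against 387 to 759 CPM), and their part in these changes was not tested.

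**Figure D1:**
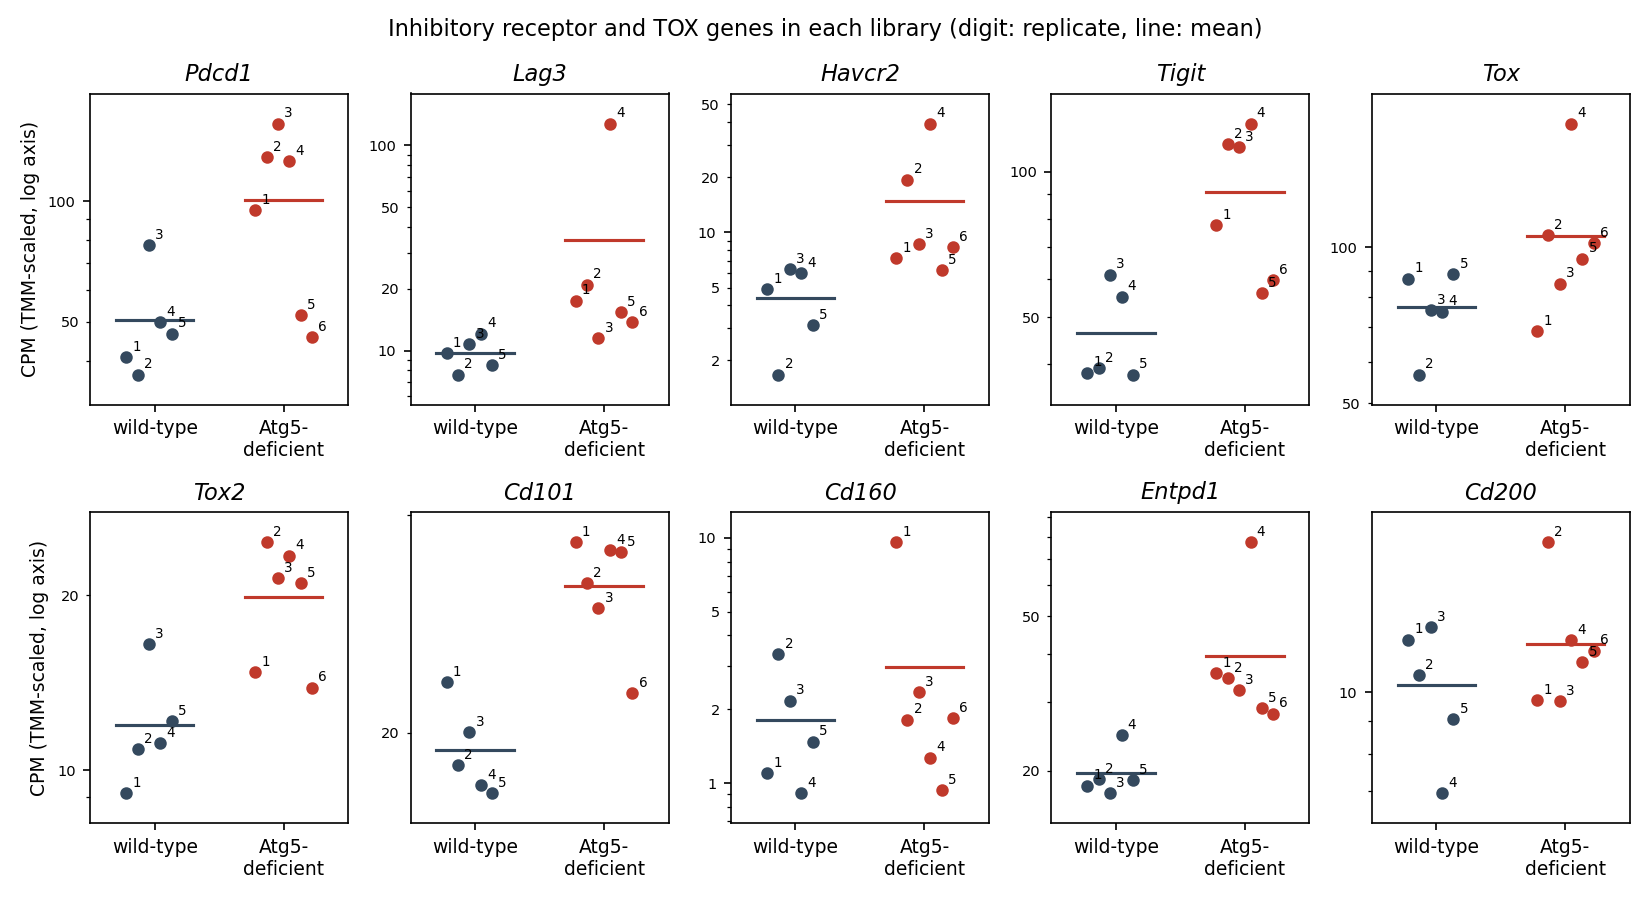
Level of each of the 10 genes in every library, in TMM-scaled CPM on a log axis, with 1 panel a gene, 1 point a library, and horizontal bars at the group means. Entpd1 is the gene whose groups are fully apart (28.0 to 77.5 against 17.5 to 24.7 CPM), Lag3 has 1 Atg5-deficient library at 127.9 CPM, and Cd160 has 1 at 9.61 CPM.

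The promoters of the 4 genes that rose are shown so that the sequences at their start sites can be compared. Of the 10 genes, 8 have an entry in the RefSeq promoter table (GRCm38.p6). Lag3 and Tox have none. Each line gives the 250 bases upstream of the RefSeq start, 5′ to 3′ on the gene's strand. The RefSeq starts lie 38 bases (Tigit), 2 (Tox2), 3 (Cd101) and 0 (Entpd1) from the gene starts given below. Capitals mark matches to 4 motifs on either strand: AP-1 (TGANTCA), the NFAT core (GGAAAA), RUNX (TGTGGT) and T-box (GGTGNGA). The windows are chr16:43664185-43664434 on the minus strand for Tigit, chr2:163202877-163203126 on the plus strand for Tox2, chr3:101029554-101029803 on the minus strand for Cd101 and chr19:40612116-40612365 on the plus strand for Entpd1.
Tigit: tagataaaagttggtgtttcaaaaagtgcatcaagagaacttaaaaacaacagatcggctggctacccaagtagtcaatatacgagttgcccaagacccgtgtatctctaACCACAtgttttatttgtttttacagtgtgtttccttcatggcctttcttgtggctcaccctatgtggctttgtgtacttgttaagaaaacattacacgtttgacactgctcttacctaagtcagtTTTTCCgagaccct
Tox2: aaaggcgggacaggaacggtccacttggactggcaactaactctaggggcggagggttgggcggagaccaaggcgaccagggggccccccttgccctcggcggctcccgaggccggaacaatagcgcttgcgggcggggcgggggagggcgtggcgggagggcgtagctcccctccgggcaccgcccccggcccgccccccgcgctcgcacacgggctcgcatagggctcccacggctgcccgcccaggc
Cd101: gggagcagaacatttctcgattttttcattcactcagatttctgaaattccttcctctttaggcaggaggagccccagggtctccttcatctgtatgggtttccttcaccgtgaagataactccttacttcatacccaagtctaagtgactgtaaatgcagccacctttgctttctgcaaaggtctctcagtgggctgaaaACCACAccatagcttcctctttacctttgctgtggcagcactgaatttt
Entpd1: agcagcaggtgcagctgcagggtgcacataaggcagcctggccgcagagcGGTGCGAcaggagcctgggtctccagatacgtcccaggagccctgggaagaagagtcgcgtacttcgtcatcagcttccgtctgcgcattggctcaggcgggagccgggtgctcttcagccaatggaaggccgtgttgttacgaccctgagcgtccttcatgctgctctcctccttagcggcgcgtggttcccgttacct
The Tigit window held 1 RUNX and 1 NFAT core match, the Cd101 window 1 RUNX match, the Entpd1 window 1 T-box match, and the Tox2 window, with 75.2% G and C, none of the 4. Of 32851 windows of the same length in the table, 6.75% held the AP-1 letters, 20.4% the NFAT core, 14.0% RUNX and 15.2% T-box. No motif was matched in all 4 windows. RUNX and T-box letters can overlap, and a match is a description of the sequence and not a binding site.

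Pdcd1 (ENSMUSG00000026285, chromosome 1, 94038305 to 94052553, minus strand, GRCm38 as for all positions) encodes PD-1, the receptor of PD-L1 and PD-L2. It ranged from 45.8 to 155.8 CPM in the 6 Atg5-deficient libraries, with a median of 110.3 CPM. The wild-type libraries had 40.9, 37.0, 77.7, 50.0 and 46.8 CPM. Replicates 1 to 4 of the deficient group, at 95.1 CPM or more, were above every wild-type library, while replicates 5 and 6 lay within the wild-type range. The means were 100.5 ± 44.4 (SD, n = 6) and 50.5 ± 16.0 CPM (SD, n = 5). Pdcd1 missed the threshold (log2 fold change 0.99, SE 0.34, adjusted p = 0.102), with a 95% interval from 0.33 to 1.65. It passed with DESeq2 (adjusted p = 0.0304), with limma-voom (0.0317) and in edgeR without Atg5-deficient replicate 6 (0.0404). That is 1 of 11 fits without 1 library, where its adjusted p reached 0.211. Of 11 other alternatives it passed in 2, and there its adjusted p reached 0.279.

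Tigit (ENSMUSG00000071552, chromosome 16, 43648867 to 43664146, minus strand) encodes a receptor of the poliovirus receptor family that competes with the costimulator CD226. Its Atg5-deficient libraries ran from 56.2 to 125.6 CPM around a median of 94.8 CPM. The wild-type libraries were at 38.5, 39.3, 61.3, 55.2 and 38.1 CPM. The same 4 deficient libraries that were high for Pdcd1 were above every wild-type library here, and replicates 5 and 6 (56.2 and 59.7 CPM) were again within the wild-type range. Tigit rose from 46.5 ± 10.96 (SD, n = 5) to 90.9 ± 30.2 CPM (SD, n = 6), a log2 fold change of 0.97 (SE 0.24, adjusted p = 0.0321). With 1 library left out in turn, the call held in 5 of 11 fits, with adjusted p from 0.0178 to 0.0772. It was lost without deficient replicate 2 or 4 or wild-type replicate 1, 2, 4 or 5 (adjusted p from 0.0513 to 0.0772).

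Lag3 (ENSMUSG00000030124, chromosome 6, 124904361 to 124911705, minus strand) encodes a CD4-like receptor that binds MHC class II. The Atg5-deficient libraries spanned 11.5 to 127.9 CPM with a median of 16.5 CPM. Wild-type libraries had 9.71, 7.63, 10.8, 12.1 and 8.50 CPM. Replicate 4 held 6.10 times the next highest value, 20.98 CPM in replicate 2, and all deficient libraries except replicate 3 were above every wild-type library. The means were 34.5 ± 45.9 (SD, n = 6) and 9.75 ± 1.78 CPM (SD, n = 5), and the test was not passed (log2 fold change 1.82, SE 0.68, adjusted p = 0.140). Without replicate 4 the deficient mean was 15.8 ± 3.64 CPM (SD, n = 5), the log2 fold change 0.70 and the adjusted p 0.0448, so the smaller difference passed. With replicates 1 and 4 both left out it was 0.66, with an adjusted p of 0.111.

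Havcr2 (ENSMUSG00000020399, chromosome 11, 46454935 to 46481255, plus strand) encodes TIM-3, a receptor of galectin-9 and phosphatidylserine that marks terminally differentiated T cells. Deficient libraries ran from 6.21 to 39.2 CPM, with a median of 8.45 CPM. Wild-type libraries stood at 4.88, 1.68, 6.33, 5.98 and 3.10 CPM. Only replicate 5 of the deficient group fell below the highest wild-type library, and the top value was again in replicate 4, 2.02 times the next. Means of 14.8 ± 12.9 (SD, n = 6) and 4.39 ± 1.97 CPM (SD, n = 5) gave a log2 fold change of 1.75 (SE 0.55, adjusted p = 0.0817). DESeq2 called it (adjusted p = 0.0183), and none of the 11 fits without 1 library did. Without replicate 4 its log2 fold change was 1.18 and its adjusted p 0.110.

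Cd101 (ENSMUSG00000086564, chromosome 3, 100993529 to 101029556, minus strand) encodes an immunoglobulin-family glycoprotein that is carried by terminally exhausted T cells and by some regulatory T cells. It had the smallest change of the 4 genes that rose and the least spread. Values in the deficient libraries ran from 21.5 to 28.5 CPM with a median of 27.2 CPM. Wild-type libraries had 21.98, 18.8, 20.0, 18.1 and 17.9 CPM, so that only deficient replicate 6 fell below a wild-type library. The mean went from 19.4 ± 1.68 (SD, n = 5) to 26.3 ± 2.65 CPM (SD, n = 6), a log2 fold change of 0.44 (SE 0.10, adjusted p = 0.0181). It passed in 9 of 11 fits with a library left out and in all 10 alternatives planned with other scalings, filters, tools, covariates or libraries. It missed the threshold without wild-type replicate 4 (adjusted p = 0.05004) or 5 (0.0526) and without deficient replicates 1 and 4 together (0.115).

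Cd160 (ENSMUSG00000038304, chromosome 3, 96798763 to 96829351, minus strand), a receptor of HVEM found mostly on natural killer and cytotoxic T cells, was low in every library. Deficient libraries ran from 0.937 to 9.61 CPM with a median of 1.83 CPM. Wild-type libraries had 1.10, 3.35, 2.17, 0.911 and 1.48 CPM. Deficient replicate 1 was the 1 library above every wild-type library. Its log2 fold change came to 0.72 (SE 0.58, adjusted p = 0.499). Without replicate 1 it was -0.13 (adjusted p = 0.895), with a deficient mean of 1.64 ± 0.551 (SD, n = 5) against 1.80 ± 0.991 CPM (SD, n = 5). Of its exonic bases, 68 are shared with Pdzk1 on the opposite strand, which had 174 counts over all libraries against 982 for Cd160, and without the strand setting of the counting these reads cannot be told apart.

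Cd200 (ENSMUSG00000022661, chromosome 16, 45382135 to 45409053, minus strand) encodes the ligand of the inhibitory receptor CD200R and is found on follicular helper and regulatory T cells. Deficient libraries ran from 9.67 to 17.2 CPM with a median of 11.4 CPM, and wild-type libraries had 12.1, 10.6, 12.6, 6.95 and 9.08 CPM. The groups overlapped, with replicate 2 the 1 deficient library above every wild-type library. Means were 11.9 ± 2.77 (SD, n = 6) and 10.3 ± 2.32 CPM (SD, n = 5), with a log2 fold change of 0.21 (SE 0.18, adjusted p = 0.529) and a 95% interval from -0.15 to 0.57. Its receptor Cd200r1 stood at 21.2 ± 3.01 (SD, n = 6) and 18.3 ± 3.20 CPM (SD, n = 5) and did not pass (0.21, SE 0.13, adjusted p = 0.375).

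Entpd1 (ENSMUSG00000048120, chromosome 19, 40612366 to 40741602, plus strand) encodes CD39, the surface enzyme that breaks extracellular ATP down to AMP. Deficient libraries ran from 28.0 to 77.5 CPM with a median of 33.4 CPM. Wild-type libraries had 18.3, 19.0, 17.5, 24.7 and 18.9 CPM. Each of the 6 deficient libraries was above all 5 wild-type libraries, which holds for 2.78% of the genes tested and for 1 of the 10 genes described here. Entpd1 rose from 19.7 ± 2.85 (SD, n = 5) to 39.5 ± 18.9 CPM (SD, n = 6), a log2 fold change of 1.01 (SE 0.25, adjusted p = 0.0332). Without replicate 4, which was 2.18 times the next library, the deficient mean was 31.9 ± 3.35 CPM (SD, n = 5), the log2 fold change 0.70 and the adjusted p 0.0093. The call was lost without deficient replicate 1 or 2 or wild-type replicate 1, 2, 3 or 5 (adjusted p from 0.0539 to 0.0777). It held in the other 5 of the 11 fits without 1 library, and in the fit without deficient replicates 1 and 4 (log2 fold change 0.66, adjusted p = 0.0317).

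Tox (ENSMUSG00000041272, chromosome 4, 6686353 to 6991557, minus strand) ranged from 69.0 to 173.0 CPM in deficient libraries, with a median of 98.5 CPM. Wild-type libraries had 86.9, 56.8, 75.6, 75.1 and 88.7 CPM. Replicates 2, 4, 5 and 6 of the deficient group were above every wild-type library, and replicates 1 and 3 were not. The means were 104.9 ± 35.9 (SD, n = 6) and 76.6 ± 12.7 CPM (SD, n = 5), and the test was not passed (log2 fold change 0.45, SE 0.20, adjusted p = 0.199). Without replicate 4 the log2 fold change was 0.25 (adjusted p = 0.322). Tox was called with a surrogate variable (0.52, adjusted p = 0.0462) or the summed markers of other cells (0.57, adjusted p = 0.0482) as a covariate.

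Tox2 (ENSMUSG00000074607, chromosome 2, 163203125 to 163324170, plus strand), the paralog of Tox that is also known from follicular helper T cells, ran from 13.9 to 24.7 CPM in deficient libraries, around a median of 21.2 CPM. Wild-type libraries had 9.14, 10.9, 16.5, 11.1 and 12.2 CPM. Replicates 2 to 5 of the deficient group were above every wild-type library, and replicates 1 and 6 were below the highest of them. Tox2 rose from 11.96 ± 2.74 (SD, n = 5) to 19.8 ± 4.51 CPM (SD, n = 6), a log2 fold change of 0.73 (SE 0.18, adjusted p = 0.0287). With a library left out it passed in 4 of 11 fits, where its log2 fold change stayed between 0.65 and 0.88. The call was lost without deficient replicate 2, 4 or 5 or wild-type replicate 1, 2, 4 or 5 (adjusted p from 0.0505 to 0.0702). The difference between the changes of Tox and Tox2 was not tested. Of the family's other members, Tox4 was at 78.7 ± 8.18 (SD, n = 6) and 73.8 ± 5.53 CPM (SD, n = 5), with a log2 fold change of 0.09 (adjusted p = 0.571), and Tox3 had too few reads to be tested.

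**Figure D2:**
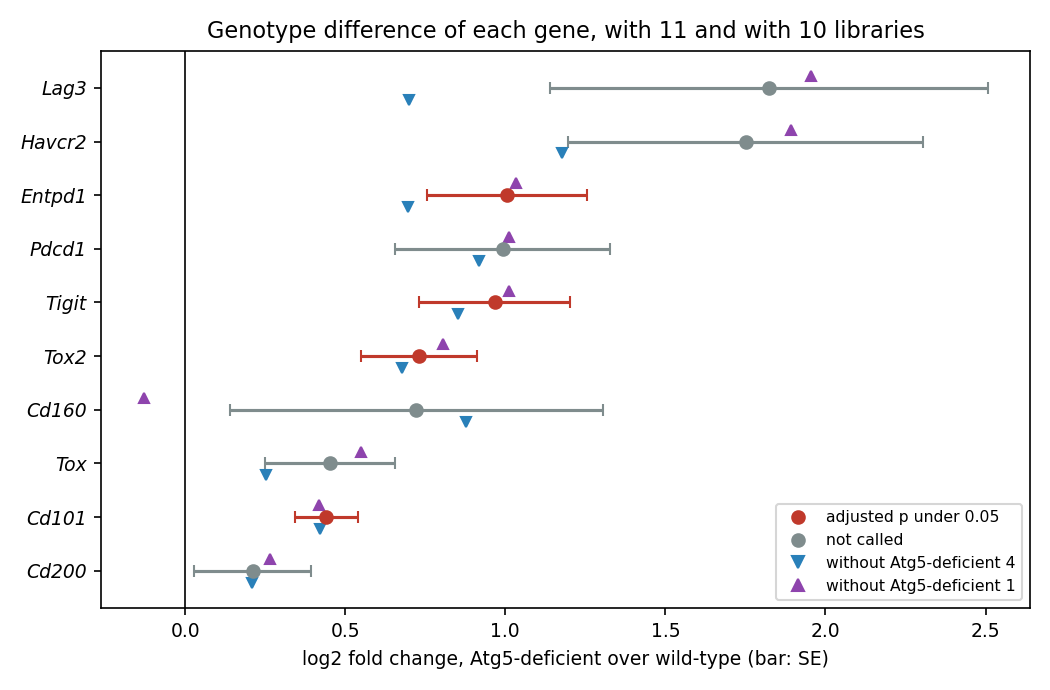
Log2 fold change (Atg5-deficient over wild-type) of each of the 10 genes with bars of 1 SE, in red where the adjusted p was under 0.05 and grey where not, and triangles for the fits without Atg5-deficient replicate 4 or 1. Cd101 has the shortest bar of the 4 genes called, Lag3 moves from 1.82 to 0.70 without replicate 4, and Cd160 from 0.72 to -0.13 without replicate 1.

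How many of the 10 genes passed depended on the libraries and on the tool more than their direction did. Leaving out 1 library gave 0 to 5 called genes, with 0 without wild-type replicate 5 and 5 without deficient replicate 6. It gave 1 without deficient replicate 2 or without wild-type replicate 1, 2 or 4. Over all genes tested, the number called higher in these fits varied too, from 402 to 1410. None of the 10 was called higher in all 11 of these fits, as 1.96% of all genes tested were. DESeq2 called 6 (8.41% of all genes), limma-voom 5 (10.9%), and the fit with no filter on low counts 2 (1.88%). Relative log expression scaling (4.58%), the strict low-count filter (6.18%) and a library size without genes of mitochondria, haemoglobin and hepatocytes (4.66%) called the same 4. The surrogate variable (4.38%) and the other-cell markers (4.11%) as covariates called 5, with Tox. The fit to 8 libraries whose title numbers run on from each other called Cd101 alone (0.462%), and the fit without deficient replicates 1 and 4 called Entpd1 alone (1%). Cd160 without deficient replicate 1, and without replicates 1 and 4, was the 1 gene whose log2 fold change turned below 0 in any of these fits.

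Per kilobase of exon, so that genes can be compared, Tigit was the highest of the 10 genes in wild-type libraries at 50.6 ± 11.9 RPKM (CPM divided by exon length in kilobases, SD, n = 5). Pdcd1 followed at 26.2 ± 8.30 RPKM and Tox at 10.1 ± 1.68 RPKM, and the ranges of these 3 did not overlap with the next in order. Below them came Cd101 (5.82 ± 0.503), Lag3 (4.62 ± 0.843), Entpd1 (3.53 ± 0.512), Tox2 (3.52 ± 0.806), Cd200 (3.09 ± 0.698), Havcr2 (1.62 ± 0.725) and Cd160 (0.682 ± 0.375 RPKM), and from Cd101 down each range overlapped with that of the next gene. In the Atg5-deficient libraries Tigit (98.9 ± 32.8 RPKM, SD, n = 6) and Pdcd1 (52.0 ± 23.0 RPKM) were again the first 2. Lag3 came next by its mean of 16.4 ± 21.7 RPKM, with 60.6 RPKM in replicate 4 and 5.44 RPKM in its lowest library, and Tox followed at 13.8 ± 4.72 RPKM. Without replicate 4 Lag3 was below Tox, at 7.5 against 11.99 RPKM, and with the longest transcript as length it was below Tox with all 6 libraries too, at 17.2 against 26.5 RPKM.

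Deficient replicate 4 had the highest level of 5 of the 10 genes (Lag3, Havcr2, Tigit, Tox and Entpd1) and was among the top 3 of 11 libraries for 8. Replicate 2 was also in the top 3 for 8 genes, whereas replicates 5 and 6 were there for 1 each. At the other end, wild-type replicates 1 and 2 were among the lowest 3 for 7 genes each. Genes that stood apart in 1 library were listed by a rule set after the values were seen, at least 3 times the highest of the other 10 libraries and at least 5 CPM. Replicates 1 to 6 of the deficient group had 5, 2, 13, 15, 1 and 2 such genes, wild-type replicate 3 had 2 and the other wild-type libraries 0. Among the 15 of replicate 4 was Lag3. The others included Eomes, a T-box factor of cytotoxic and regulatory type 1 cells (83.0 CPM against at most 24.8), Il10 (47.6 against at most 11.9), and the chemokine genes Ccl3 (71.3 against at most 5.92) and Ccl4 (50.4 against at most 5.69). Spp1, which encodes osteopontin, had 94.3 CPM against at most 2.37, and the T cell receptor segment Trav7n-6 had 7.91 against at most 0.961 CPM. The 13 of replicate 3 held none of the 10 genes and included the immunoglobulin segment Ighv1-82 (13.3 CPM against at most 0.181), the receptor partner Ramp3 (48.8 against at most 12.95) and Cables1 (32.5 against at most 7.52). The 5 of replicate 1, the library high in Cd160, were Gzma (48.6 CPM against at most 15.7), Cx3cr1 (46.1 against 11.4), S1pr5 (27.7 against 6.25), Plac8 (23.5 against 6.65) and the segment Trav7d-3 (7.504 against 1.47). Gzma, Cx3cr1 and S1pr5 are known from cytotoxic lymphocytes. Gzma (log2 fold change 3.65, SE 0.86, adjusted p = 0.0328, edgeR) and Cx3cr1 (2.95, SE 0.73, adjusted p = 0.0384) were also called higher over all libraries. Both genes were picked for a high level in 1 deficient library of the same data. Such a pick favours a higher call, so these calls are not independent of it. The deficient libraries of both genes were all above every wild-type library, as for 2.78% of the genes tested. Gzma had at least 2.96 against at most 2.42 CPM, and Cx3cr1 at least 3.81 against at most 2.25 CPM. With 1 library left out, the calls held in 6 and 5 of 11 fits. Among markers of cytotoxic cells, Cd8b1 was at 4.21 CPM in replicate 1 and 4.16 CPM in replicate 4, below the range of the other libraries (4.40 to 6.39 CPM), and Cd8a at 0.111 and 0.0529 CPM. Prf1, which encodes perforin, was at 8.03 CPM in replicate 1 and at 27.8 CPM, the highest of the 11 libraries, in replicate 4. Ncr1, a receptor of natural killer cells, was at 0.305 CPM in replicate 1, the highest of the 11, and at 0 CPM in replicate 4, and Klrb1c was at 2.08 and 0.900 CPM. Klre1 and Klri2, the remaining 2 natural killer cell markers, were at 0.111 and 0.111 CPM in replicate 1 and at 0.159 and 0.688 CPM in replicate 4. The part of such cells in the Lag3 and Cd160 levels was not tested.

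**Figure D3:**
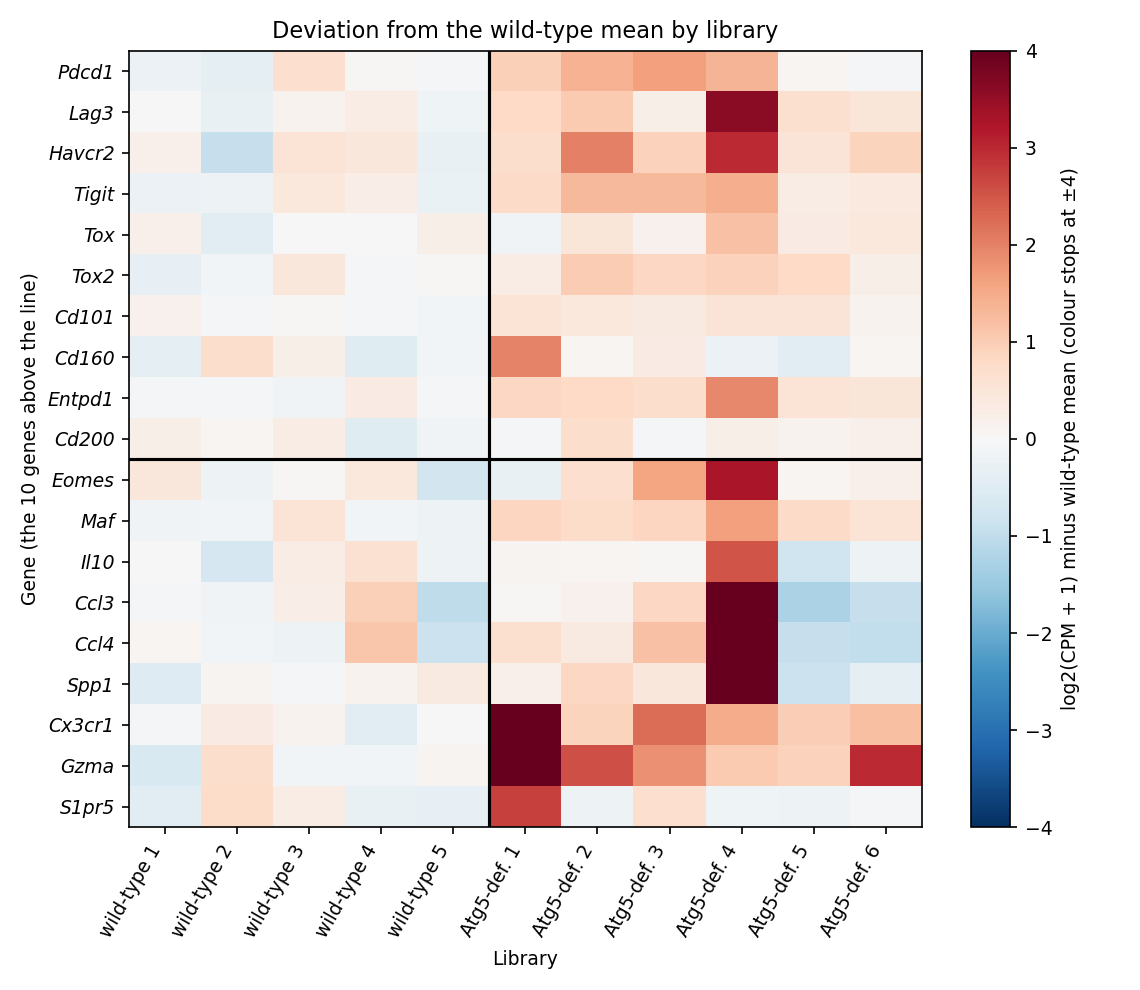
Log2(CPM + 1) in each library minus the wild-type mean, with genes in rows (the 10 genes above the line, genes that stand apart in a library and Maf below it), libraries in columns and a colour scale that stops at 4 in either direction. Deficient replicate 4 is strongest in the Lag3, Havcr2 and Entpd1 rows, replicate 1 in the Cd160 row, and replicates 5 and 6 are near the wild-type libraries for Pdcd1 and Tigit.

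Levels were also set against each other from library to library after each genotype's mean was subtracted, over 11 libraries that share depth and scaling. Pdcd1 and Tigit varied together (Pearson r = 0.92, Spearman rho = 0.86), and r stayed at 0.82 without the 2 libraries farthest out for Pdcd1 (deficient replicates 5 and 6). Lag3 and Havcr2 had r = 0.81 (rho = 0.78), and 0.73 without deficient replicate 4. Lag3 and Entpd1 had r = 0.94 (rho = 0.66), but 0.50 without replicate 4. Tox went with Lag3 at 0.78 and with Entpd1 at 0.64, and without replicate 4 these were 0.22 and -0.27, so they rest on that library. Over the 45 pairs of the 10 genes the median r was 0.29 and 37 were above 0. Of the other genes set beside them, Tcf7, which encodes the TCF-1 factor of naive and stem-like T cells, went against Pdcd1 (r = -0.82, rho = -0.85) and Tigit (-0.80, rho = -0.80). For Pdcd1 this was -0.40 without the 2 libraries farthest out, and for Tigit -0.78. With Foxp3, Tox2 had r = 0.68 (rho = 0.75), and 0.44 without the 2 libraries farthest out for Tox2. The other 9 genes had r with Foxp3 of 0.39 (Pdcd1), 0.29 (Havcr2), 0.27 (Tigit), 0.26 (Cd200), 0.24 (Tox), 0.18 (Cd101), -0.097 (Lag3), -0.21 (Entpd1) and -0.48 (Cd160). Without the 2 libraries farthest out for each gene, r with Foxp3 was 0.77 (Pdcd1), 0.51 (Havcr2), 0.29 (Tigit), 0.038 (Cd200) and 0.50 (Tox). For the remaining genes it was -0.21 (Cd101), 0.52 (Lag3), -0.12 (Entpd1) and 0.20 (Cd160), so most of these values depend on a few libraries. These are descriptions of 11 libraries, with no test.

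**Figure D4:**
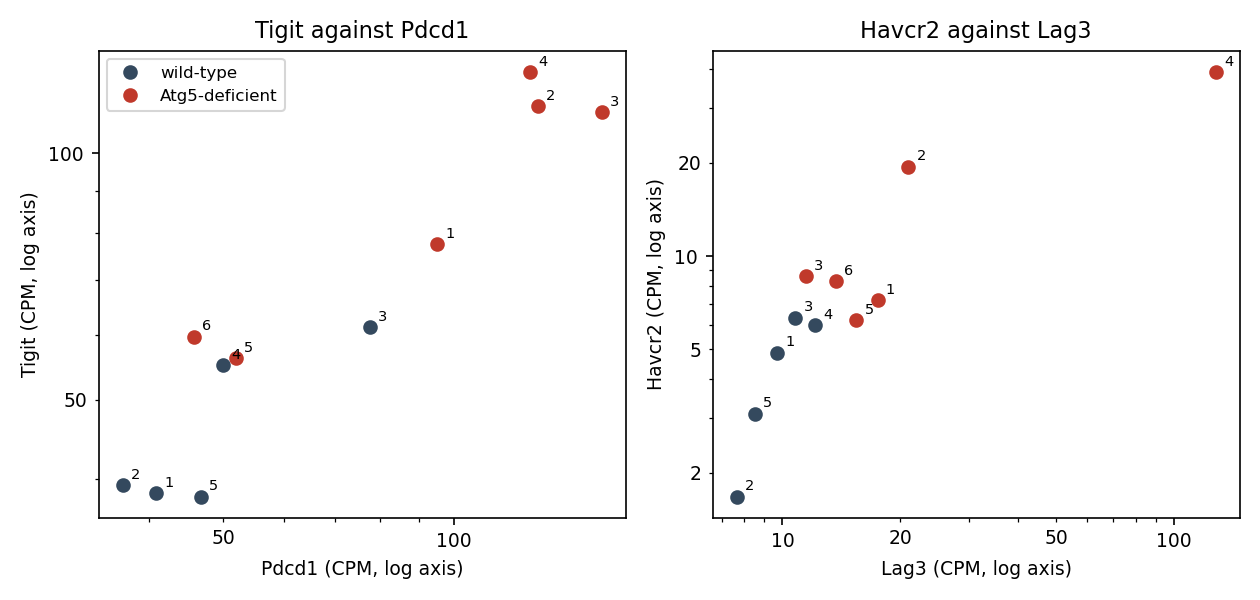
Tigit against Pdcd1 and Havcr2 against Lag3 in CPM on log axes, with 1 point a library, numbered by replicate and coloured by genotype. Deficient replicates 1 to 4 lie above the others for Pdcd1 and Tigit together, while replicates 5 and 6 lie among the wild-type libraries, and deficient replicate 4 is highest for Lag3 (127.9 CPM) and Havcr2 (39.2 CPM).

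Genes of the same pathways were counted in lists, to be read against 4.43% higher and 2.41% lower calls and a median log2 fold change of -0.0027 over all genes tested. These lists were also chosen with earlier results of these data known. Of 13 other inhibitory receptors tested, 3 rose and 0 fell (median log2 fold change 0.46): Cd6 (0.46, SE 0.08, adjusted p = 0.0057) and Cd5 (0.40, SE 0.09, adjusted p = 0.0214), scavenger receptor proteins that restrain antigen receptor signals, and Pvrig (0.98, SE 0.25, adjusted p = 0.0311), a nectin receptor. Cd6 and Cd5 are also among the 8 CD4 T cell markers, and are the 2 of those that were called. Ctla4, the receptor that takes CD80 and CD86 from CD28, was at 300.8 ± 111 (SD, n = 6) and 164.6 ± 54.9 CPM (SD, n = 5) and missed the threshold (0.87, SE 0.30, adjusted p = 0.107). It is also among the regulatory T cell markers. Of 12 ligands tested, 4 rose and 0 fell (median 0.52): Lgals3 (1.71, SE 0.29, adjusted p = 0.0085), a ligand of LAG-3, Cd80 (1.18, SE 0.25, adjusted p = 0.0151), Pdcd1lg2 (0.97, SE 0.25, adjusted p = 0.0306) and Cd274 (0.50, SE 0.14, adjusted p = 0.0428), which encode PD-L2 and PD-L1. Cd274 was at 42.8 ± 8.32 (SD, n = 5) and 60.6 ± 8.50 CPM (SD, n = 6), and Pdcd1lg2 at 1.85 ± 0.422 and 3.63 ± 0.932 CPM. The dendritic cell markers summed to 2.17 to 5.42 CPM in wild-type and 4.74 to 13.3 CPM in deficient libraries (adjusted p = 0.0519, exact permutation test), with Itgax called higher and 5 of the 7 markers under 1 CPM on average. Zbtb46 (1.20, adjusted p = 0.106, edgeR) and Xcr1 (-0.024, adjusted p = 0.990) were not called. Flt3, Siglech, Clec9a and Cd209a, the remaining dendritic cell markers, had too few reads to be tested. The part of such cells in the ligand levels was not tested.

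Costimulatory receptors, which strengthen T cell activation, had 4 of 13 members higher and 0 lower (median 0.32), against the same 4.43% of all genes. These were Icos (0.65, SE 0.11, adjusted p = 0.0056), Slamf1 (0.76, SE 0.14, adjusted p = 0.0094), and the TNF receptor family members Tnfrsf18 (0.69, SE 0.16, adjusted p = 0.0208) and Tnfrsf4 (0.94, SE 0.22, adjusted p = 0.0288). Tnfrsf18 is also 1 of the 5 regulatory T cell markers, as are Ctla4 and Ikzf2 of the other lists. In the adenosine pathway, which continues from the CD39 product, 1 of 11 members rose and 0 fell, against 4.43% of all genes called higher. It was the adenosine receptor Adora2a (0.47, SE 0.12, adjusted p = 0.0382, median of the list 0.28). Nt5e, which encodes CD73 and makes adenosine from AMP, was at 123.0 ± 19.9 (SD, n = 6) and 101.2 ± 16.9 CPM (SD, n = 5) and did not pass (0.28, adjusted p = 0.197).

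Among 23 transcription factors linked to exhaustion and to the TOX family, 7 rose and 2 fell (median 0.43), against 4.43% and 2.41% of all genes tested. Ikzf2 (0.77, SE 0.15, adjusted p = 0.0108), Prdm1 (1.10, SE 0.21, adjusted p = 0.0120), Maf (0.93, SE 0.20, adjusted p = 0.0181) and Tbx21 (1.15, SE 0.27, adjusted p = 0.0266) rose, as did Irf4 (0.56), Nfatc1 (0.40) and Id2 (0.61). Ikzf2 is also among the summed regulatory T cell markers, so these results are not independent. Tcf7 fell from 1410 ± 130 (SD, n = 5) to 954 ± 180 CPM (SD, n = 6) (-0.56, SE 0.12, adjusted p = 0.0148), and Bach2, a repressor of effector differentiation, fell with it (-0.76, SE 0.19, adjusted p = 0.0356). Nr4a1, Nr4a2 and Nr4a3, which lie with TOX downstream of NFAT, had log2 fold changes of 0.35, 0.78 and 0.59 and did not pass (adjusted p = 0.474, 0.318 and 0.516). Of 20 genes of inhibitory signalling, 5 rose and 0 fell (median 0.06), again against 4.43% of all genes called higher: Dok2 (0.50, SE 0.10), Lgals1 (1.16, SE 0.22), Ptpn11 (0.48, SE 0.11), Dok1 (0.58, SE 0.15) and Inpp5d (0.33, SE 0.09). Ptpn11 encodes SHP-2, the phosphatase that PD-1 recruits, and Inpp5d the phosphatase SHIP-1. Ptpn6, which encodes SHP-1, did not pass (-0.20, adjusted p = 0.506). Of the 5 lists without a lower call in edgeR, inhibitory signalling had 1 gene lower at an unadjusted p under 0.05 (Dgka) and the ligands 1 (Pvr), and the other 3 had 0. The share of all genes that were lower at this unadjusted p is not given here. DESeq2 called 1 gene lower in inhibitory signalling and 0 in the other 4 lists, against 5.66% of all genes. Limma-voom called 2 lower in inhibitory signalling, 1 ligand (Pvr), 1 other inhibitory receptor (Btla) and 0 in the remaining lists, against 8.12%.

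Foxp3, the factor of regulatory T cells (0.81, SE 0.15, adjusted p = 0.0097), and Mki67, a gene of dividing cells (1.30, SE 0.22, adjusted p = 0.0079), passed in all 11 fits without 1 library, and Cd4 (0.31, adjusted p = 0.122) passed in 1. Among all genes tested, 1.96% were called higher in all 11, a share that leaves out lower calls such as Tcf7. Of the called genes of the lists, Cd6, Lgals3, Cd80, Icos, Slamf1, Ikzf2, Prdm1, Maf, Tcf7, Dok2 and Lgals1 also passed in all 11. The others lost the call in some of these fits: Cd5 and Ptpn11 passed in 9, Tnfrsf18 and Irf4 in 8, Pdcd1lg2 and Tbx21 in 7, Pvrig, Tnfrsf4 and Inpp5d in 5, Adora2a in 4, and Cd274, Nfatc1, Id2, Bach2 and Dok1 in 3.

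**Figure D5:**
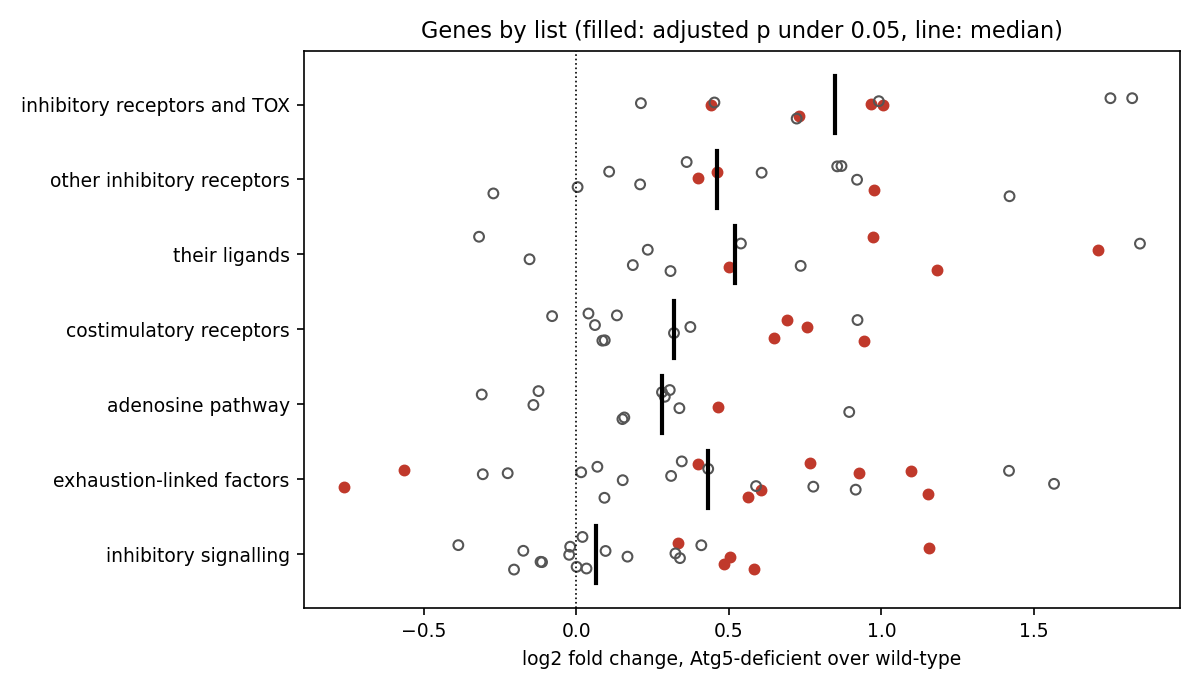
Log2 fold change (Atg5-deficient over wild-type) of every tested gene in the 10 genes and in the 6 related lists, with 1 point a gene, filled in red where the adjusted p was under 0.05, and a vertical line at the list's median. The medians are 0.85 for the 10 genes, 0.46 for other inhibitory receptors, 0.52 for ligands, 0.32 for costimulatory receptors, 0.28 for the adenosine pathway, 0.43 for the factors and 0.06 for inhibitory signalling.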

How the data were processed

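RNA was sequenced in 11 libraries with a stranded total RNA kit, per the labels' protocols. The values deposited by the authors are raw counts of reads per Ensembl gene. The submitters' processing notes name STAR, featureCounts and GRCm38 without versions. Annotation, strand setting and duplicate handling: not given in the sources used here. Of 56748 gene IDs, 52125 (91.8%) matched GENCODE M21 (GRCm38), which gave symbols, positions and exon lengths, and matched IDs held 89.3% to 96.5% of a library's reads. No column (0) belonged to another sample. Totals of 30699408 to 47564440 counts set the precision.

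The filter was filterByExpr, with a minimum count of 10 and a minimum total of 15, and scaling was by TMM. Genotype was tested over all 11 libraries in edgeR by its quasi-likelihood F test with robust estimation. Adjustment was by Benjamini-Hochberg, and calls have an adjusted p under 0.05. The common biological coefficient of variation was 0.341. SE is the log2 fold change divided by the square root of F. Gene CPM are TMM-scaled, and marker sums use total counts. A 95% interval is the log2 fold change ± the normal quantile times SE. The test was checked on simulated counts with the same dispersion for all genes and no library made to stand apart from its group. The check therefore does not cover genes with a library that stands apart. Versions were edgeR 4.0.16, DESeq2 1.42.0, limma 3.58.1 and sva 3.50.0 in R 4.3.3, with Python 3.11.15, pandas 2.3.3 and scipy 1.17.1.

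The 10 genes and the lists were chosen with earlier results of these data known. Named beside the 10 were Atg5, Cd4, Foxp3, Tbx21, Mki67, Tcf7 and Ctla4, and from each list up to 4 called genes with the smallest p and the most abundant gene. Further called genes of a list, Tox4, Tox3, Cd200r1, Ptpn6, Pvr, Btla, the Nr4a genes, and genes apart in 1 library were named after their values were seen. Replicates were numbered in accession order and pair nothing. Alternatives were other scalings (relative log expression, upper quartile, a library size that omits genes of mitochondria, haemoglobin and hepatocytes), DESeq2, limma-voom with quality weights, no filter, a strict filter (1 CPM in 5 libraries), a surrogate variable or other-cell markers as a covariate, 8 libraries with consecutive title numbers, each library left out in turn and, for levels, the longest transcript. The fit without Atg5-deficient replicates 1 and 4 was added after the data were seen.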

Additional observations from a re-analysis of the deposited data

Results flagged for a closer look

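In groups of 4 to 10 libraries, the highest or lowest library of each of 40 named genes was compared with the rest of its group by Dixon's criterion. Of 80 gene and group pairs, 10 had a library that stood away from the others, 6 of them among the 20 pairs of the 10 genes described, and chance gives about 1 in 20 (the criterion's 5% level). Atg5-deficient replicate 4 had 4 of them: Lag3 at 127.9 CPM (other deficient libraries 11.5 to 20.98), Tox at 173.0 CPM (69.0 to 105.4), Entpd1 at 77.5 CPM (28.0 to 35.6) and Maf at 418.7 CPM (195.4 to 245.9). The other deficient libraries that stood away were replicate 1 for Cd160 (9.61 CPM against 0.937 to 2.36) and replicate 2 for Cd200 (17.2 CPM against 9.67 to 12.1). Replicate 6 was low for Cd274 (44.2 CPM against 60.9 to 67.7), and replicate 3 was low for Lgals1 (112.4 CPM against 222.8 to 286.8). In the wild-type group, replicate 4 was high for Entpd1 (24.7 CPM against 17.5 to 19.0) and replicate 3 for Maf (197.1 CPM against 115.9 to 124.5). The cause of these values was not tested.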

How the results depend on the processing

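The edgeR test called 797 genes higher and 434 lower, 1231 in all. DESeq2 called 2333 (1394 higher, 939 lower), limma-voom 3426 (1966 and 1460), the 8 libraries with consecutive title numbers 176 (87 and 89), and the fit without Atg5-deficient replicates 1 and 4 called 225 (182 and 43). Upper-quartile scaling called 584 higher and 685 lower. Leaving out 1 library gave 642 to 2143 calls (402 to 1410 higher, 191 to 733 lower), with the most without deficient replicate 3. Of the 10 genes, 4 were called higher, against 2 with no low-count filter, 1 with the 8 libraries, 1 without deficient replicates 1 and 4, and 0 to 5 with 1 library left out. Of the 16 library properties and marker sums, 1 passed, and 0 to 3 passed with 1 library left out, where fewer splits exist. The log2 fold change of Cd160 was -0.13 without deficient replicate 1 and -0.051 without replicates 1 and 4 (adjusted p = 0.895 and 0.973), and ran from -0.13 to 1.07 with 1 library left out. With the longest transcript as length, wild-type RPKM were 19.3 for Tox, 4.66 for Entpd1 and 4.38 for Cd200. Of 440 values of named genes with 1 library left out, 363 kept their direction and their side of the threshold, 71 lost the call, 5 gained it and 1 changed sign; of 439 under the other alternatives these were 371, 52, 15 and 1. Fits with fewer libraries have less power, and the cause of other changes was not tested. DESeq2 gave no adjusted p for Lag3. No paired analysis was possible because the labels give no replicate numbers. Depth limits Cd160 most, with 32 to 347 counts a library.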
